A study of Homo sapiens with 11 samples.

Results

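The genes described here are 45 that license origins of replication and build the replication fork: the MCM helicase, the factors that load and activate it, the origin recognition complex, the sliding clamp and its loader, the replicative polymerases and primase, the single-strand binding protein RPA, and the S-phase regulators cyclin E and E2F1, with the histone chaperone subunit CHAF1A. A gene was included by its symbol, older aliases counting, and was read from its brightest probe. All 45 had a probe on the array and 44 passed the filter on dim signals, out of 10267 genes tested. The exception was GINS1, a subunit of the GINS complex, which averaged 82.3 ± 3.44 (SD, n = 4) over the gelsolin lines and 82.9 ± 1.06 (SD, n = 2) over the vector lines, under the limit of 88.35.

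In eukaryotes an origin is licensed in G1, when the origin recognition complex together with CDC6 and CDT1 loads the MCM hexamer onto DNA, and geminin, the product of GMNN, blocks CDT1 once S phase has begun. Kinases that include cyclin E with CDK2 then let CDC45 and GINS join MCM to form the active helicase. Primase and polymerase alpha lay down primers, polymerases delta and epsilon extend them on the clamp PCNA that replication factor C loads, RPA covers the exposed single strands, and FEN1 and LIG1 trim and seal Okazaki fragments. Many of these genes are known targets of E2F transcription factors, and proliferating carcinoma cells such as HCT116 express them.

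HCT116 is a human colorectal carcinoma cell line. The gelsolin lines C1, C2, C3 and C8 had stably taken up a pIRES2-EGFP plasmid carrying the cDNA of human cytoplasmic gelsolin, an actin-severing protein, and the vector lines V4 and V5 the same plasmid without it. The study describes both sets as stable clones, so that each line is 1 clone. RNA was hybridised to Illumina HumanRef-8 beadchips, giving 8 gelsolin arrays (2 harvests of each line) and 3 vector arrays (V4 at both harvests and V5 from a single array). Untransfected HCT116 cells were not analysed here. Beadchip 1 held the first harvests of the gelsolin lines and of V4, beadchip 2 their second harvests and V5. Harvest and beadchip thus cannot be told apart in the gelsolin lines. V5 is labelled as a first replicate although it was on beadchip 2, so that replicate and beadchip differ for V5 alone.

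Array medians ran from 80.1 to 105 in the gelsolin arrays and from 75.7 to 88.7 in the vector arrays before scaling, and no signal was below 34.2, so that background remained in the values and shrinks the fold change of a dim probe. GSN, the gene of gelsolin, read 225.7, 197.1, 209.8 and 265.4 in C1, C2, C3 and C8, against 140.9 and 140.2 in V4 and V5 (log2 fold change 0.67, adjusted p = 0.00365 by limma). Of 11 markers of colon epithelium 7 passed the filter, among them EPCAM, KRT8, KRT18, KRT19 and CDX2, while VIL1, CDX1, LGALS4 and CEACAM5 did not, and the summed signal of the list was 23960 to 28080 in the gelsolin lines and 19660 to 25920 in the vector lines. Of the leukocyte, fibroblast and endothelial markers 3 of 13 with a probe passed the filter (LYZ, COL1A1 and VWF), whereas PTPRC, COL1A2 and PECAM1 did not. The summed signals of these lists were 239.9 to 285.4 in gelsolin and 250.3 to 261.3 in vector lines for leukocytes, 389.9 to 402.7 and 437 to 496.5 for fibroblasts, and 226.3 to 267.2 and 207 to 209 for endothelium. Some markers differed in level between the groups: KRT19 read 9808 in gelsolin and 4969 in vector lines, and KRT20 118.3 and 64.2. COL1A1 read 110.3 and 163.0, and VWF 122.9 and 75.2. The part of these differences in the results was not tested. In bulk RNA, fewer cells that express a gene and less RNA per cell cannot be told apart.

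The second harvest of V4 stood apart for the replication genes. It was the lowest of all 11 arrays for 23 of the 44 measured members, against 11% of all genes tested, and 35 of the 44 read lower in it than in the other harvest of V4 (54.2% of all genes; median log2 difference -0.28 for the members and -0.02 for all genes). PRIM1 illustrates the gap, at 543.9 and 306.6 in the harvests of V4 and 434.8 in V5. The part of the second harvest of V4 in the results was not tested beyond leaving the array out. Member calls lost without it are given gene by gene below, and calls of other replication genes only as a count.

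The promoters of these genes were searched for words that played no direct part in their choice, although many of these genes are known E2F targets, as given above. Windows of 300 bases, from 250 before to 50 after a RefSeq transcript start in the GRCh38.p14 build, were found for 38 of the 45 members and searched on both strands for E2F words (TTTCCCGC, TTTCGCGC, TTTGCCGC or TTTGGCGC) and for the CCAAT box (CCAAT or, on the opposite strand, ATTGG). An E2F word lay in a window of 19 of the 38 members (50%), against 3.99% of 27305 genes in the same table, and a CCAAT box in 23 (60.5%) against 39.7%. Counted by window, the shares were 40.4% of 47 member windows and 3.31% of 35116 windows for the E2F words, and 57.4% and 34.6% for the CCAAT box. The E2F words were present in 5 of the 13 members with a window that differed between gelsolin and vector lines, and in 14 of the other 25. The latter include GINS1, which holds an E2F word but was under the filter and not tested. A match is a string of letters and does not show that a factor binds there.

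The windows of 7 members are printed 5′ to 3′ on the strand of the gene, in lower case with E2F words and CCAAT boxes in capitals. Only the first of the 2 windows of POLD1 is printed. PRIM1 (chr12:56752274-56752573, minus strand), FEN1 (chr11:61792661-61792960, plus strand), LIG1 (chr19:48170295-48170594, minus strand), POLD1 (chr19:50384073-50384372, plus strand) and ORC3 (chr6:87589885-87590184, plus strand) are the members with the smallest adjusted p that have a window. CDC6 (chr17:40287629-40287928, plus strand) and MCM6 (chr2:135876394-135876693, minus strand) were chosen after their values were seen, as the member that fell and the member with the most E2F words.
PRIM1: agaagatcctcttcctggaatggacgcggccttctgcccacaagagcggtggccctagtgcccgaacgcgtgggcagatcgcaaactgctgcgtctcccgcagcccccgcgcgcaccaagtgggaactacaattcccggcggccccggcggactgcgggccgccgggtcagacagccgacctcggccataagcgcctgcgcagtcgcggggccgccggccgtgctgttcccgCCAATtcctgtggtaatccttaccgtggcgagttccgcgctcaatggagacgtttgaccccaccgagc
FEN1: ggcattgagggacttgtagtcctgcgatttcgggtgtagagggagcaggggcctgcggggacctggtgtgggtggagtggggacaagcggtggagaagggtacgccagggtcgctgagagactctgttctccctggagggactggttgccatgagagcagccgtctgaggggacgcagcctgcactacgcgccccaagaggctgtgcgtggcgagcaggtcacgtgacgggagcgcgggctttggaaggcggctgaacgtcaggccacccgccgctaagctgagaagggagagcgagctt
LIG1: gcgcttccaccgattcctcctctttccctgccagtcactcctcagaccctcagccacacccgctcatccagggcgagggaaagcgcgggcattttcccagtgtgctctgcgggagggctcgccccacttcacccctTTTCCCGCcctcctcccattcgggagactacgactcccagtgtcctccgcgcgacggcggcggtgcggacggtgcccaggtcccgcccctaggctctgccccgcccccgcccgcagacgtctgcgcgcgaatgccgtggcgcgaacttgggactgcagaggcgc
POLD1: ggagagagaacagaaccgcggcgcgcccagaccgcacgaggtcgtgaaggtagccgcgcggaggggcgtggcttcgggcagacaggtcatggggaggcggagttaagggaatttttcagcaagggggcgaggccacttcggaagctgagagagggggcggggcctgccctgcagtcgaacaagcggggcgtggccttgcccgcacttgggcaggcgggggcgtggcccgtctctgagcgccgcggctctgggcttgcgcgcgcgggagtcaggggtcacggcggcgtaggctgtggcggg
ORC3: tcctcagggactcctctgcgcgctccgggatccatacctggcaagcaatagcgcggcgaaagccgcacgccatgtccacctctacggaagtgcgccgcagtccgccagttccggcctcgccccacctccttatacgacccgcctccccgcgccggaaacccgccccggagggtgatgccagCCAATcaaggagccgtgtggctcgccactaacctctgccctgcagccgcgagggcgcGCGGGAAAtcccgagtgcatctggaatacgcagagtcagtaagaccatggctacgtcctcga
CDC6: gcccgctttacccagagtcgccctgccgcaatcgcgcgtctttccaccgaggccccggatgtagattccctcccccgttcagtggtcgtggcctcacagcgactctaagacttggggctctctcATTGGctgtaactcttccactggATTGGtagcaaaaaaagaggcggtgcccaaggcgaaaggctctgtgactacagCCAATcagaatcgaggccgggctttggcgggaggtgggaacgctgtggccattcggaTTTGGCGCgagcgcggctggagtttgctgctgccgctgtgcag
MCM6: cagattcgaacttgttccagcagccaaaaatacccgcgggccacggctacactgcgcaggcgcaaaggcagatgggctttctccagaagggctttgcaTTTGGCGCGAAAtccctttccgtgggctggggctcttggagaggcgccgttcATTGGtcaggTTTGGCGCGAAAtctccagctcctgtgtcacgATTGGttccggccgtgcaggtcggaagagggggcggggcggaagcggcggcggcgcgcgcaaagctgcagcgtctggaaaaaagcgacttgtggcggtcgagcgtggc

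The primase gene PRIM1 holds a CCAAT box 18 bases before its start and no E2F word, FEN1 holds neither, and neither of the 2 windows of POLD1 holds one. LIG1 holds an E2F word whose first base is 114 bases before the start, and ORC3 an E2F word at -12 on the opposite strand with a CCAAT box at -69. MCM6 carries 4 E2F words, in overlapping pairs at -152 and -148 and at -90 and -86, and CDC6 1 at 8 bases into the transcript with CCAAT boxes at -126, -103 and -50.

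The comparison of gelsolin with vector lines asked which replication genes differ in cells that overexpress gelsolin. Of the 44 measured members 15 were higher in the gelsolin lines (34.1%, against 12.8% of all genes tested) and 1, CDC6, was lower (2.27%, against 9.41%), at an adjusted p under 0.05 by limma with Benjamini-Hochberg adjustment over all genes. None changed by 2-fold. The median log2 fold change of the members was 0.25, against 0.02 for all genes tested, and 38 of the 44 lay above 0, against 53.3% of all genes. By single arrays, the groups were fully apart with gelsolin on top for 9 members (11% of all genes) and with vector on top for 1 (9.23%), and by line means all 4 gelsolin lines lay above both vector lines for 19 members (25.3% of all genes) and below both for 3 (20.8%). The members were distributed over the roles: every group but helicase loading and cyclin E with E2F1 held at least 1 gene that rose. An exact permutation test over 6 lines cannot give a p below 0.0667, whatever the difference. The methods' t-test, which takes each gene's spread from that gene alone, called 2 members after adjustment, PRIM1 (adjusted p = 0.0377) and FEN1 (0.042).

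**Figure D1:**
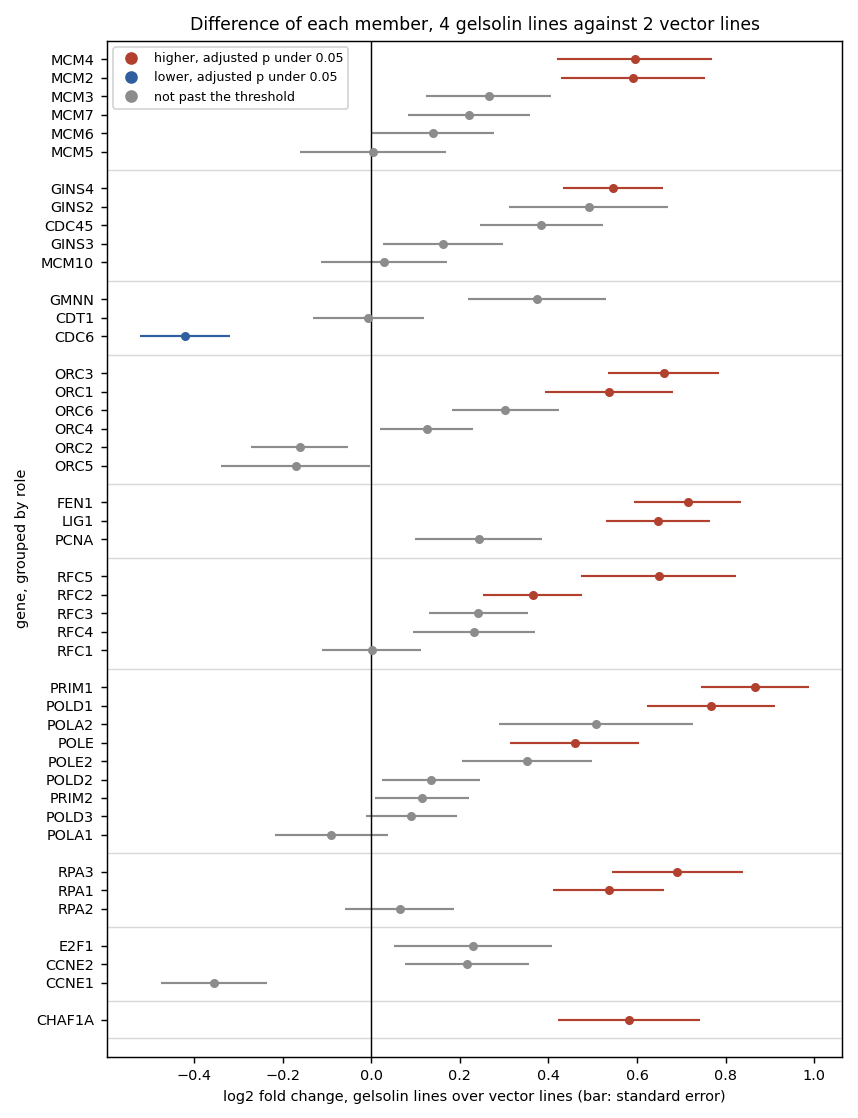
Log2 fold change of the 44 measured members, gelsolin over vector lines (x axis; bars, standard error; n = 4 and 2 lines), grouped by role on the y axis. Red points are the 15 members that rose, the blue point is CDC6 and grey points did not pass the threshold; 38 points lie to the right of 0.

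Of the 6 subunits of the MCM helicase 2 rose, MCM2 and MCM4, while MCM3, MCM5, MCM6 and MCM7 did not pass the test. MCM2 ran from 442.3 to 770.6 over the gelsolin arrays (median 589.6), against 537 and 313 in V4 and 401.2 in V5, a log2 fold change of 0.59 (SE 0.16, adjusted p = 0.0225). MCM4 ran from 1000.0 to 1924 (median 1521), against 1116, 728.5 and 966.8 on the vector arrays, a log2 fold change of 0.59 (SE 0.17, adjusted p = 0.0321). For both genes the first harvest of V4 lay inside the range of the gelsolin arrays, so the groups overlapped, with C8 the lowest gelsolin line. Leaving out the second harvest of V4 gave 0.40 for MCM2 (adjusted p = 0.164) and 0.44 for MCM4 (adjusted p = 0.119), neither past the threshold. Both calls were also lost without V4 (adjusted p = 0.126 and 0.195) and without V5 (0.172 and 0.156), and that of MCM4 without C1 (0.0518) or C3 (0.0572). With the beadchip as a block both fell just short (0.54, adjusted p = 0.0526 for MCM2; 0.56, adjusted p = 0.0561 for MCM4). The other subunits had log2 fold changes of 0.26 for MCM3, 0.22 for MCM7, 0.14 for MCM6 and 0.00 for MCM5.

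Of the factors that turn the loaded hexamer into an active helicase, GINS4 rose. Its gelsolin arrays spanned 207.3 to 264.8 (median 240.2), against 160.1, 149 and 168.3 on the vector arrays, with no overlap. The log2 fold change was 0.55 (SE 0.11, adjusted p = 0.00573), and it was 0.48 without V4, where the call was lost (adjusted p = 0.084). GINS2 (0.49, adjusted p = 0.073) and CDC45 (0.38, adjusted p = 0.0687) lay just outside the threshold, and CDC45 passed it on the authors' ratios (adjusted p = 0.0381). Without the second harvest of V4, CDC45 was at 0.20 (adjusted p = 0.411) and GINS2 at 0.42 (0.126). With the beadchip as a block CDC45 was at 0.32 (adjusted p = 0.146). GINS3 (0.16) and MCM10 (0.03), a factor that helps activate the helicase, lay further from the threshold.

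Of the 3 genes of helicase loading and its inhibitor 1 fell and none rose. CDC6, the ATPase that brings MCM to the origin, fell, and its gelsolin arrays (72 to 105.6, median 93.4) all lay below its vector arrays (116.6 and 118.2 in V4, 125.6 in V5). Line means were 100.9 in C1, 93.4 in C2, 89.95 in C3 and 80.0 in C8, against 117.4 in V4 and 125.6 in V5, a log2 fold change of -0.42 (SE 0.10, adjusted p = 0.0119). These signals are close to the filter limit of 88.35, and the mean of C8 is below it. The call was lost without V4 (-0.47, adjusted p = 0.0587) and without V5 (-0.37, adjusted p = 0.137). CDT1, which loads MCM together with CDC6, showed no difference beyond its error: its arrays spanned 1529 to 2486 (median 2117) in the gelsolin lines, against 2167 and 1716 in V4 and 2125 in V5 (log2 fold change -0.01, SE 0.13, adjusted p = 0.977). GMNN, the inhibitor of CDT1, gave 485.7 to 862.3 (median 663.3) on the gelsolin arrays and 499.4, 497.7 and 486.4 on the vector arrays. Its log2 fold change of 0.37 (SE 0.16) did not pass the test (adjusted p = 0.109), and C8 (529.9 and 485.7) was the only gelsolin line with an array as low as the vector arrays.

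In the origin recognition complex, which marks origins and recruits CDC6, ORC3 and ORC1 rose. ORC3 gave 325.7 to 479.1 on the gelsolin arrays (median 434.6), against 269.3, 279.9 and 251.7 on the vector arrays, without overlap (log2 fold change 0.66, SE 0.13, adjusted p = 0.00328). ORC1, the largest subunit, gave 278.1 to 500.1 (median 392.5), against 332.2, 229.5 and 263.4, with overlap (0.54, SE 0.14, adjusted p = 0.0204). The call of ORC3 was lost without V5 (0.60, adjusted p = 0.0713), and that of ORC1 without V4 (adjusted p = 0.106), without V5 (0.174) and without the second harvest of V4 (0.40, adjusted p = 0.107), and within beadchip 2 (0.0921). The remaining subunits did not pass: ORC6 had a log2 fold change of 0.30, ORC4 0.13, ORC2 -0.16 and ORC5 -0.17. Subunits of the complex thus lay on both sides of 0.

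**Figure D2:**
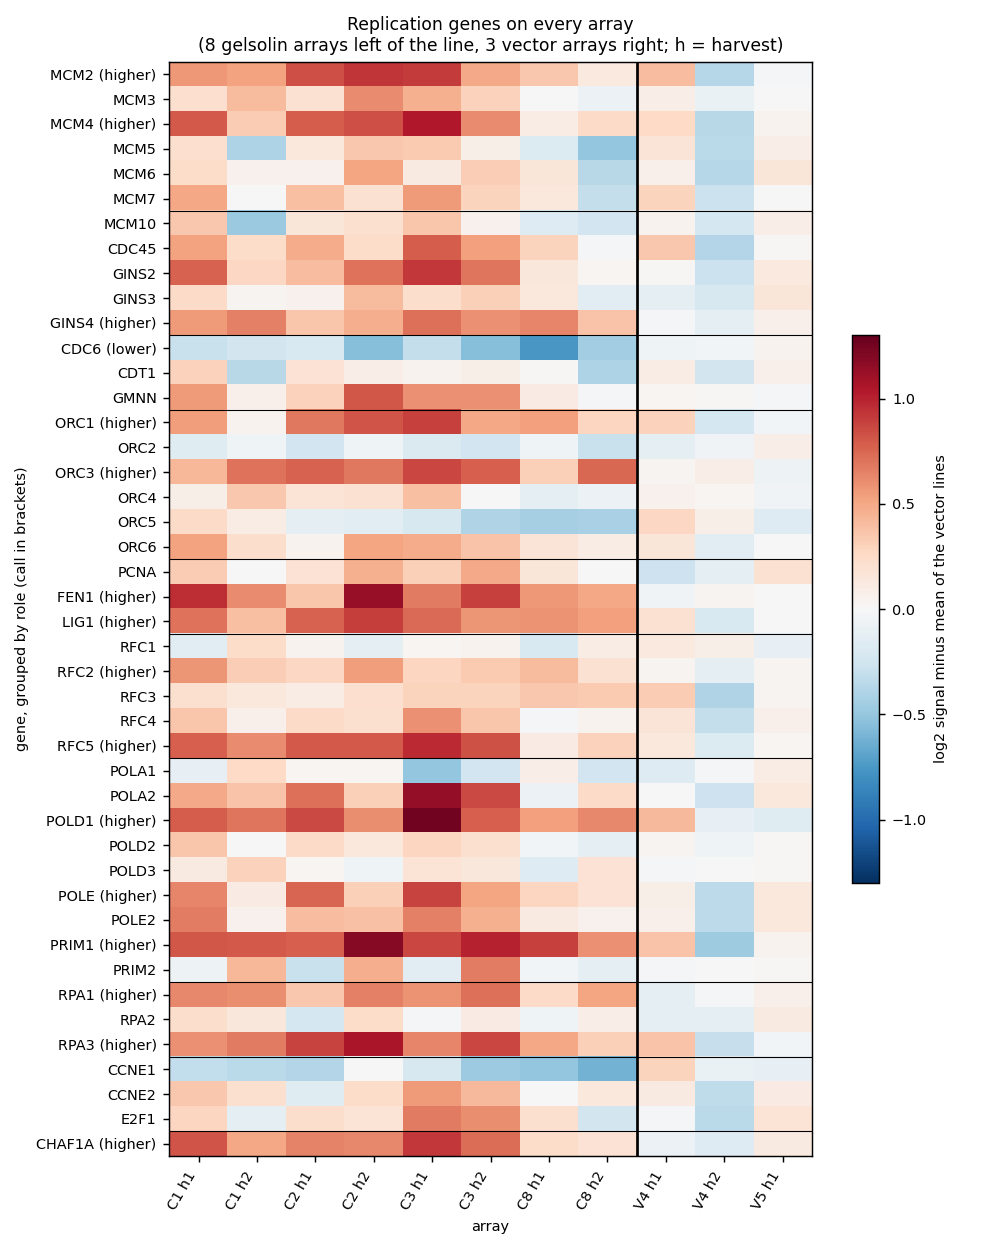
Heat map of the 44 measured members (rows, grouped by role, call in brackets) on the 8 gelsolin and 3 vector arrays (columns; h, harvest). Colour is log2 signal minus the mean of the vector lines; CDC6 is blue on all 8 gelsolin arrays, and the second harvest of V4 is the bluest vector column.

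Lagging-strand genes included 2 of the members with the smallest adjusted p. FEN1, the flap endonuclease, spanned 411.2 to 701.2 over the gelsolin arrays (median 500.6), against 309.1, 327.3 and 321.4 on the vector arrays, a log2 fold change of 0.71 (SE 0.12, adjusted p = 0.00169). LIG1, the ligase that joins Okazaki fragments, spanned 226.7 to 322.6 (median 270.8), against 198.9, 150.6 and 172.8 (0.65, SE 0.12, adjusted p = 0.00263). Neither gene overlapped between the groups, and both calls were kept whichever line was left out and without the second harvest of V4. PCNA, the clamp on which they act, did not pass: its gelsolin arrays ran from 1394 to 1968 (median 1656) and its vector arrays were 1161 and 1280 in V4 and 1595 in V5. The log2 fold change was 0.24 (SE 0.14, adjusted p = 0.249), and V5 lay inside the range of the gelsolin arrays.

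Replication factor C, which opens the clamp and places it on DNA, had 2 subunits higher. RFC5 gave 1360 to 2479 on the gelsolin arrays (median 2181), against 1387, 1116 and 1284 on the vector arrays (log2 fold change 0.65, SE 0.17, adjusted p = 0.0225). Its line means were 2052 in C1, 2194 in C2 and 2359 in C3, but 1453 in C8, against 1244 in V4 and 1284 in V5, so that C8 was closer to the vector lines than to the other gelsolin lines. RFC2 gave 312.2 to 404.2 (median 341.7), against 279, 251.4 and 279.8, with no overlap (0.36, SE 0.11, adjusted p = 0.036). A dimmer RFC2 probe read 136.4 ± 13.6 (SD, n = 4 lines) in gelsolin and 118.0 ± 4.68 (SD, n = 2 lines) in vector lines, while a second RFC5 probe lay under the filter at 51.1 and 57.0. The mean of all probes left both genes short of the threshold (adjusted p = 0.16 for RFC5 and 0.0758 for RFC2). Without V4 or V5 the calls were lost for RFC5 (adjusted p = 0.143 and 0.145) and for RFC2 (0.221 and 0.159), and for RFC2 also without C1 (0.0717), C2 (0.072) or the second harvest of V4 (0.0817), within beadchip 2 (0.0976) and with the beadchip as a block (0.0505). That of RFC5 was lost on the authors' ratios (0.0617). RFC3 (0.24), RFC4 (0.23) and the large subunit RFC1 (0.00) did not pass. A slightly dimmer RFC3 probe, also above the filter, read 206.2 ± 9.21 (SD, n = 4 lines) in gelsolin and 163.3 ± 2.2 (SD, n = 2 lines) in vector lines. Its log2 difference was 0.335.

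Among the polymerases and primase, 3 of 9 rose, each of them a catalytic subunit. PRIM1, which makes the RNA primer, had the smallest adjusted p of all members: 636.1 to 960.1 on the gelsolin arrays (median 753.0), against 543.9, 306.6 and 434.8 on the vector arrays. The log2 fold change was 0.87 (SE 0.12, adjusted p = 0.000607), a 1.82-fold difference, and the call was kept without each line in turn and without the second harvest of V4 (0.66). POLD1, the catalytic subunit of polymerase delta, gave 317.1 to 523.5 (median 366.5), against 294, 204.1 and 196.7 (0.77, SE 0.14, adjusted p = 0.00316). POLE, that of polymerase epsilon, gave 1782 to 3050 (median 2210), against 1745, 1306 and 1814 (0.46, SE 0.15, adjusted p = 0.041). PRIM1 and POLD1 had no overlap between the groups, whereas the lowest gelsolin array of POLE lay under V5. The call of POLD1 was lost without V5 (0.61, adjusted p = 0.0848), and that of POLE without C2 (0.0654), C3 (0.0833), V4 (0.326), V5 (0.109) or the second harvest of V4 (0.113), within beadchip 2 (0.161), with beadchip in the model (0.0561) and on the authors' ratios (0.0833).

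Their partner subunits did not pass the test. Log2 fold changes were 0.51 for POLA2 (adjusted p = 0.131), 0.35 for POLE2 (0.108), 0.14 for POLD2, 0.12 for the primase subunit PRIM2, 0.09 for POLD3 and -0.09 for POLA1, the catalytic subunit of polymerase alpha. The second harvest of PRIM2 was higher by 0.49 on the log2 scale over the gelsolin lines and higher in 3 of 4 lines. This difference did not pass the limma test between harvests (adjusted p = 0.294), where MCM7 (0.282) and POLE (0.286) had smaller adjusted p. The PRIM2 probe was dim, at 93.16 to 180.7 on the gelsolin arrays.

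RPA coats the unwound strands, and 2 of its 3 subunits rose. RPA1, the large subunit that holds most of the DNA-binding surface, spanned 897 to 1236 over the gelsolin arrays (median 1135), against 695.4, 745 and 789.4 on the vector arrays, without overlap (log2 fold change 0.54, SE 0.13, adjusted p = 0.0103). RPA3, the smallest subunit, spanned 1677 to 2806 (median 2127), against 1740, 1093 and 1320 (0.69, SE 0.15, adjusted p = 0.00676), and its lowest gelsolin array, from C8, fell below the first harvest of V4. RPA2, at 0.06 on the same scale, did not pass (adjusted p = 0.745). The calls were lost without V4 (adjusted p = 0.122 for RPA1 and 0.0595 for RPA3) and without V5 (0.0714 and 0.0947), and that of RPA3 without the second harvest of V4 (0.52, adjusted p = 0.0505).

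The S-phase regulators did not pass the test in either direction. CCNE1, the cyclin E that activates CDK2 at the entry into S phase, gave 121.2 to 184.9 on the gelsolin arrays (median 143.6), against 226.3 and 174.7 in V4 and 172.2 in V5. All 4 gelsolin lines (146.8, 162.1, 146.0 and 125.9 in C1, C2, C3 and C8) were below both vector lines (198.8 and 172.2), and the log2 fold change of -0.36 (SE 0.12) lay just outside the threshold (adjusted p = 0.0529). It passed under quantile normalization (-0.40, adjusted p = 0.0253), without C2 (-0.41, adjusted p = 0.0291) and without the second harvest of V4 (-0.45, adjusted p = 0.0429). With the beadchip as a block (-0.40, adjusted p = 0.0594) and within beadchip 2 (-0.27, adjusted p = 0.307) CCNE1 did not pass. Its log2 fold change ran from -0.46 to -0.25 when each line was left out in turn. CCNE2, the other cyclin E, did not pass at 0.22 (adjusted p = 0.292). E2F1, a transcription factor that acts on many replication genes, gave 135.2 to 254.3 (median 185.2), against 157.9, 125 and 180. Its log2 fold change was 0.23 (SE 0.18, adjusted p = 0.39), and C3 at 247.8 was above the other gelsolin lines, at 157.5 to 183.5.

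CHAF1A, the large subunit of the chaperone that deposits histones behind the fork, rose. It spanned 225.5 to 374 over the gelsolin arrays (median 308), against 188.1, 176.9 and 215.5 on the vector arrays, with no overlap (log2 fold change 0.58, SE 0.16, adjusted p = 0.0234). C8 was again nearest the vector lines, at 230.0 against 182.4 in V4 and 215.5 in V5. The call was lost without V4 (0.46, adjusted p = 0.209) and without V5 (0.70, adjusted p = 0.0861), within beadchip 2 (0.53, adjusted p = 0.0628) and on the authors' ratios (adjusted p = 0.0539).

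**Figure D3:**
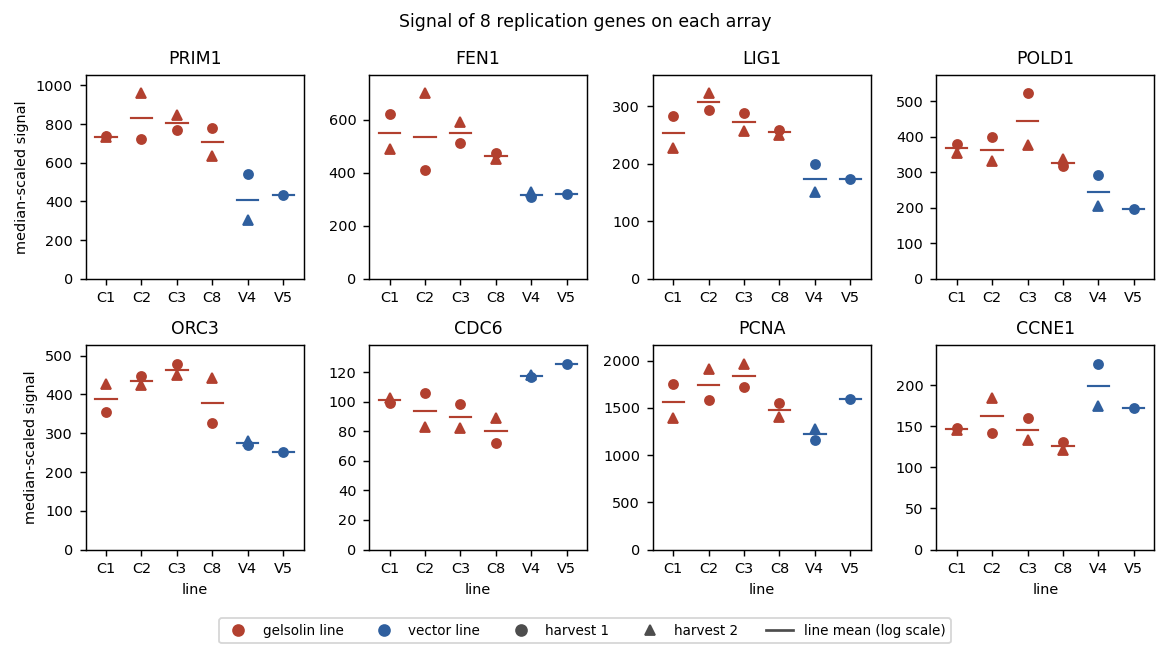
Median-scaled signal (y axis, linear from 0) of 8 members on each array of the gelsolin lines (red) and vector lines (blue); circles are the first harvest, triangles the second and bars the line mean. PRIM1, FEN1, LIG1, POLD1, ORC3 and CDC6 show no overlap between groups, and PCNA and CCNE1 do.

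C3 had the highest and C8 the lowest median over the members among the gelsolin lines. Relative to the mean of the vector lines, the median of the 44 members was 0.29 in C1, 0.31 in C2, 0.45 in C3 and 0.07 in C8 on the log2 scale, against -0.04 in V4 and 0.04 in V5, with medians of all genes between -0.05 and 0.06. C3 was the highest gelsolin line for 23 members (26.9% of all genes) and C8 the lowest for 35 (46.9% of all genes). In the clamp and Okazaki fragment group the median was 0.55 in C1, 0.75 in C2, 0.65 in C3 and 0.54 in C8, against -0.01 in V4 and 0.01 in V5. In the MCM helicase it was 0.28, 0.35, 0.40 and -0.06 in the same order, against -0.02 in V4 and 0.02 in V5, so that C8 lay below both vector lines. GSN itself was highest in C8, and these are 4 lines only, so no relation between the levels was computed.

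**Figure D4:**
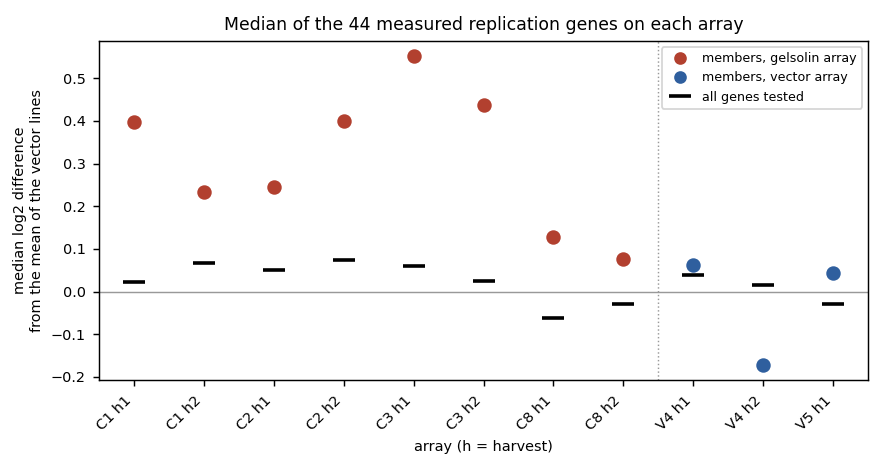
Median log2 difference of the 44 measured members from the mean of the vector lines (y axis) on each array (x axis; red, gelsolin; blue, vector), with the median of all genes tested as a black dash. The gelsolin arrays lie between 0.08 and 0.55, those of C8 lowest, and the second harvest of V4 lies at -0.17.

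Differences among the 4 gelsolin lines were tested on their 8 arrays with the harvest as a factor. No member passed the adjusted threshold, against 44 genes (0.429%) of all, and the smallest adjusted p was 0.116, for RFC5. At an unadjusted p under 0.05 there were 13 members, against 16.8% of all genes. RFC5 had line means with an SD of 0.31 on the log2 scale, against 0.10 between the harvests of a line, and POLA2, the accessory subunit of polymerase alpha, 0.38 against 0.21. Over the members the median SD was 0.18 between lines and 0.18 between harvests of a line, and it was larger between lines for 17 of 44. These SDs are unlike measures and cannot be compared directly. A line mean averages 2 harvests, which narrows the SD between lines. The SD between harvests is of single arrays and holds any shift common to the lines. The share over all genes is not given here.

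Between the second and the first harvest of the gelsolin lines no gene passed the adjusted threshold, and 5 members did at an unadjusted p under 0.05, against 10.9% of all genes (1119). MCM7 (-0.36), POLE (-0.36), CDT1 (-0.28) and CDC45 (-0.27) were lower in the second harvest and PRIM2 (0.49) was higher, with adjusted p-values of 0.282 or more. Of the 44 members 30 were lower in the second harvest (44.5% of all genes). In V4 the second harvest was also the lower for most members, as given above.

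Leaving out V4 or V5 leaves 1 vector line, which is then assumed to vary like the gelsolin lines. Of the 16 called members 5 kept the call without V4 and 4 without V5, with no other member called, while 8.63% and 6.19% of all genes were called. The median of the 44 members was 0.22 without V4 and 0.34 without V5 on the log2 scale, against 0.25 with all lines. PRIM1, FEN1 and LIG1 kept the call whichever line was left out. Without the second harvest of V4, an alternative chosen after seeing the data, 11 members were called, 9 higher and 2 lower (17.3% of all genes were called), 10 of them among the 16, and the median fell to 0.21 on the log2 scale. Without C8 the count was 24, of which 23 were higher and all 16 were included (24.5% of all genes), and GMNN was among the additions (0.48, adjusted p = 0.0194). With the beadchip as a block 12 members were called, all among the 16. Within beadchip 1, with V4 as the only vector array and the spread taken from the gelsolin arrays alone, none was called (1.99% of all genes) and the members' median was 0.22; within beadchip 2, with 2 vector arrays, 12 were called (14.6%) and the median was 0.36. All 16 kept their direction on both beadchips.

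**Figure D5:**
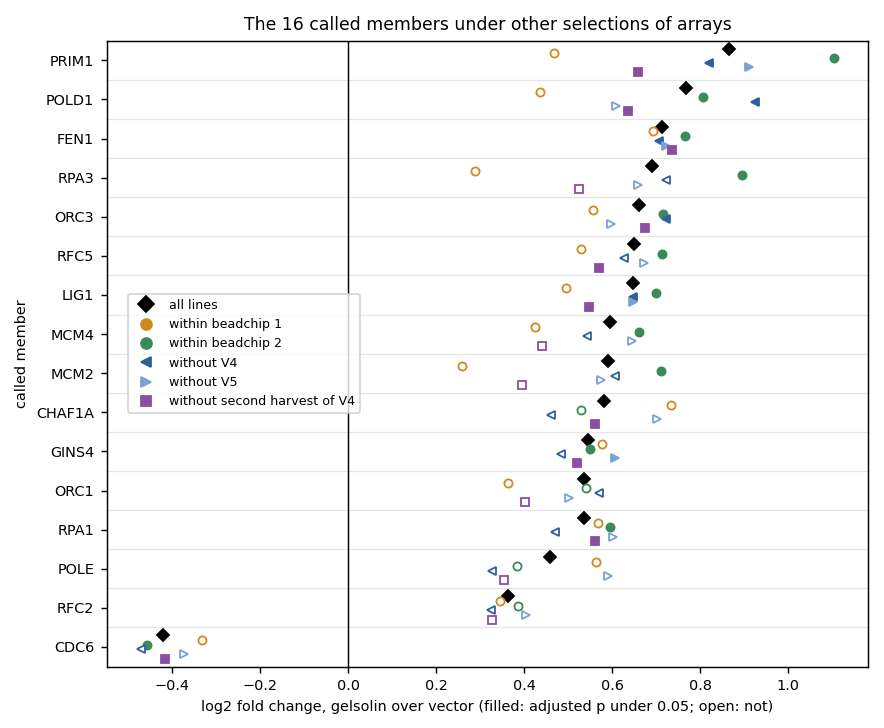
Log2 fold change of the 16 called members (rows), gelsolin over vector, with all lines and under 5 other selections of arrays; filled symbols have an adjusted p under 0.05 and open symbols do not. All symbols of a gene lie on the same side of 0, and those within beadchip 1 are open for all 16.

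A further 71 genes of replication, grouped by 10 roles, were read from the same fit; 61 were measured. Of the 61, 16 were higher and 3 lower (26.2% and 4.92%, against the shares of all genes given above), with a median log2 fold change of 0.14. CHTF18, a subunit of an alternative clamp loader, rose most (1.03, adjusted p = 0.000222), at 373.6 ± 38.0 (SD, n = 4 lines) in gelsolin and 182.5 ± 3.45 (SD, n = 2 lines) in vector lines. SKP2, which targets licensing factors and cell cycle inhibitors for degradation, followed (0.98, adjusted p = 0.00186), at 634.7 ± 124 and 318.1 ± 14.1. In the same group, the turnover of licensing factors, CUL4B (0.76, adjusted p = 0.00879) and FBXO5 (0.61, adjusted p = 0.00983) rose as well and 4 of 7 did not pass. CHTF18 and SKP2 kept the call whichever line was left out; CUL4B and FBXO5 lost it without V4 or V5.

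Nucleotide supply held 2 of 6 higher, among them TK1, the thymidine kinase (0.87, adjusted p = 0.00851). RNASEH2A, the catalytic subunit of RNase H2, rose (0.71, adjusted p = 0.00445), while its partner RNASEH2B fell (-0.50, adjusted p = 0.0315). CDC7, the kinase that triggers origin firing, rose (0.52, adjusted p = 0.0141), as did 2 others of 8 in that group. RBL2, a pocket protein that represses E2F targets (0.53, adjusted p = 0.0104), TOP2A, the topoisomerase of dividing cells (0.53, adjusted p = 0.017), and ASF1B, a histone chaperone (0.49, adjusted p = 0.0188), were also higher. E2F5 (-0.42, adjusted p = 0.035) and E2F8 (-0.30, adjusted p = 0.0498), both transcription factors of the E2F family, were the other genes that fell; the 3 that fell are named as a set after their values were seen. E2F8 lost its call without any 1 of the 6 lines (adjusted p 0.0597 to 0.237) and with the beadchip as a block (0.0732), E2F5 without C3, V4 or V5 (0.0681 to 0.335), and RNASEH2B without C1, V4 or V5 (0.0521 to 0.233). TK1, CDC7, TOP2A and ASF1B lost theirs without V4 or V5, RNASEH2A without V4 (0.0894) and RBL2 without V5 (0.16), and TOP2A also with the beadchip as a block (0.0791). None of the 4 further polymerase and helicase subunits passed, and 1 of 7 fork protection genes did. Without the second harvest of V4, 8 of the 61 were called, 5 higher and 3 lower, and 3 were called without V4 or without V5.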

How the data were processed

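RNA of 4 gelsolin and 2 vector lines was measured on 11 arrays. The authors summarised bead intensities in BeadStudio without normalization between arrays, and these deposited intensities were used here. The deposited ratio table, made by the authors in GeneSpring by dividing each array by its 50th percentile and each probe by a baseline set from the controls, served as an alternative; it equals the scaled intensities up to a constant per probe, so fold changes are the same and only the spread that limma fits along signal level differs. Each array was divided by its median and multiplied by the common median of 88.35, and log2 values of the 2 harvests were averaged per line, V5 having 1 array. Of 20596 probes, the 10733 that exceeded this common median by line mean in 2 or more of the 6 lines were kept, and the brightest probe represented a gene. Lines were compared with limma 3.58.1 in R 4.3.3 (lmFit, eBayes with trend and robust settings), 2-sided, with Benjamini-Hochberg adjustment over 10267 genes and a threshold of 0.05; SD and means are of line means on the linear scale. Separate fits on the 8 gelsolin arrays tested differences among lines and between harvests. The steps were tested on simulated data. These gave the vector lines the spread of the gelsolin lines, so they cannot show how far the 2 vector lines vary. Arrays give no counts, so their number limits the precision. In the main comparison, p-values set a difference against the spread between these lines. In the fits on the 8 gelsolin arrays they set it against the spread left after line and harvest. Fits within a beadchip use the spread of single arrays. Values on every array were given for members past the threshold and for PCNA, CDC6, CDT1, GMNN, CCNE1 and E2F1 whatever their values, fold changes for the other members, and, of the other replication genes, the 10 with the smallest adjusted p. The members and lists were chosen with earlier results of these data known. Probe names came from the platform annotation, updated through the gene identifier; 18389 probes had 1 symbol and 2207 none. Alternatives covered normalization, background, filter, test, probe, beadchip, replicate block, the ratio table and leaving out each line; 2 that leave out an array were chosen after seeing the data.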

Additional observations from a re-analysis of the deposited data

Results flagged for a closer look

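In 2 of the 44 measured members C8 lay far from the other gelsolin lines by Dixon's ratio. Chance exceeds its limit in about 1 of 20 groups of 4, so that about as many are to be expected among 44. The share over all genes is not given here, and C8 was the lowest gelsolin line for 46.9% of all genes. ORC4 read 98.3 in C8, against 119.9 to 121.9 in C1, C2 and C3. FEN1 read 463.9 in C8, against 536.9 to 552.0 in the other gelsolin lines, and all 4 were above the vector lines.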

How the results depend on the processing

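The 16 called members kept their sign under every alternative that tested them, and CDC6 was not above the stricter filter. Below, all genes and the other replication genes are compared by their counts of calls only. The main comparison called 2280 genes, 16 members and 19 other replication genes. The methods' t-test with Benjamini-Hochberg adjustment called 483, 2 and 3; within beadchip 1 the counts were 204, 0 and 0; within beadchip 2, 1497 genes were called. Leaving out each line in turn gave 636 to 2515 genes, 4 to 24 members and 3 to 27 other replication genes, lowest without V5 for genes and members, without V4 or V5 for the other replication genes, and highest without C8. With the beadchip as a block 1931 genes, 12 members and 12 other replication genes were called, and 8 of the last without the second harvest of V4. The harvest numbers were not taken to pair the samples, since only 2 exist; with the replicate block the counts were 1990, 18 and 16, CDC45 (adjusted p = 0.0411) and GINS2 (0.0447) joining the 16 members. On the authors' ratios 14 members were called, without RFC5, POLE and CHAF1A and with CDC45. Among the gelsolin lines 44 genes were called, against 28 under quantile normalization, 129 without a filter, 20 with plain eBayes, 16 with no replicate block and 0 to 297 without each line in turn (0 without C1, 297 without C8). Between harvests 0 genes and 0 members were called by limma (1119 genes and 5 members at an unadjusted p under 0.05), against 19 genes without a filter, and 0 to 419 genes and 0 to 2 members without each line in turn, highest without C8. Higher genes made up 57.6% of calls, but 50.9% under quantile normalization, 50.7% after normexp and 48.4% without a filter; the median over all genes moved between -0.06 and 0.05 on the log2 scale. The cause of these shifts was not tested. With 3 vector arrays of 2 lines, and background left in the signals, the number of vector arrays and the signal over background limit what can be called.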
